A study of Sus scrofa with 23 samples.

Results

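The 2-cell embryos cloned from Duroc and from Laiwu donor cells were compared through the FPKM values of their libraries, 1 library for each breed, 2 of the 23 libraries of the study. They were the libraries labelled NT-D and NT-LW at the 2-cell stage, chosen by stage and donor breed alone. The nuclear donors were ear fibroblasts from a single 1-year-old boar of each breed, so breed, animal and cell line could not be told apart. In both groups the nuclei were fused into enucleated oocytes that had been matured in vitro from slaughterhouse ovaries of hybrid sows, and the reconstructed embryos were grown in PZM3 medium at low oxygen. About 5 to 10 clones were mixed for a library, so embryos within a group were not seen apart. FPKM values are relative to library depth and do not give the amount of RNA per embryo. For context the same genes were read in the in vitro matured recipient oocytes (labelled NT-D oocyte) and in the 1-cell and 4-cell clones. They were also read in the 2-cell embryos fertilized in vivo (IV-D), which came from Duroc sows and shared 1 Duroc sire. That sire was the boar whose cells were the nuclear donors of NT-D. The clones were all male, whereas male and female IV-D embryos were mixed.

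Before its own genome is switched on, an early embryo lives on RNA and protein stored by the oocyte. This stored RNA is cleared in steps, through shortening of the poly(A) tail, binding of repressors and decay of the transcript. In pigs the main onset of embryonic transcription comes at the 4-cell stage, so most RNA of a 2-cell clone is thought to be oocyte RNA, and its mitochondria come mostly from the recipient oocyte as well.

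The depth was 18103471 fragments in the NT-D and 20261305 in the NT-LW library, against 22991067 in the IV-D 2-cell library. The 8603 genes of the table held 83.5% of the fragments of the NT-D and 84.9% of those of the NT-LW library. The genes at or above an FPKM value of 1 numbered 6366 in NT-D, 6897 in NT-LW and 5931 in IV-D 2-cell embryos. Of 9 oocyte markers, 7 were in the table and none was at 0 in either library, and their FPKM values summed to 1881 for NT-D and 2746 for NT-LW. Of 12 fibroblast markers, 8 were in the table with sums of 95.7 and 70.7, against 4.38 in the IV-D library. S100A4 carried the order of the breeds, and without it the sums of the other 7 were 18.9 in NT-D and 22.5 in NT-LW. The same 7 summed to 4.26 in IV-D 2-cell and 38.3 in IV-D 1-cell embryos. Of 10 cumulus and granulosa markers 2 were in the table. HAS2 had 4 fragments in NT-D and 0 in NT-LW, and VCAN, which was also high in the IV-D library at 171, had 127 and 97.6.

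In the deposited values the NT-LW library lay higher over most genes, with a median log2 difference of -0.37 (NT-D minus NT-LW, on log2 of FPKM plus 1). The values were therefore scaled by the median ratio of the 6313 genes that reached an FPKM value of 1 in both, with factors of 0.877 for NT-D and 1.14 for NT-LW. The median difference was -0.05 after scaling. A gene was called when this scaled difference passed 1 and its scaled FPKM value was at least 1 in either library. Of 6905 genes compared, 779 were called (11.3%). They comprised 228 genes higher in NT-D (3.3%) and 551 genes higher in NT-LW (7.98%). The split depended on the scaling, since the deposited values without it gave 45 genes higher in NT-D and 1076 higher in NT-LW. Each side had 1 library, so the spread between replicates is unknown and no p-value is given. The exact 95% interval of the ratio of fragments, which covers counting error only, lay wholly beyond 2-fold for 158 of the 228 and 491 of the 551 genes.

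**Figure D1:**
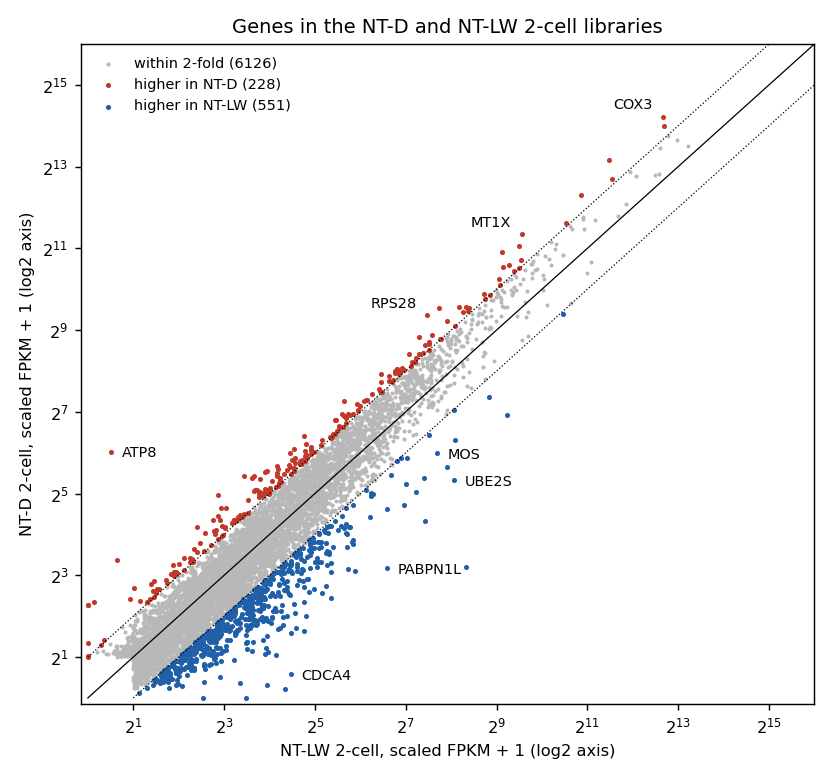
Scaled FPKM plus 1 of each of the 6905 compared genes in the NT-LW (x) and NT-D (y) 2-cell libraries, on log2 axes. The solid line marks equal values and the dotted lines a 2-fold difference. Blue points (551 genes, higher in NT-LW) reach far below the lower line at low and middle levels, while red points (228 genes, higher in NT-D) follow the upper line closely up to the highest levels.

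The sets differed in level and in size of difference. Genes higher in NT-LW had a median FPKM value of 2.44 in NT-D and 11.8 in NT-LW, against 7.55 and 11.2 over all compared genes. They were picked for lying lower in NT-D, so their low NT-D level follows at least in part from that choice. Of these genes 65 passed a log2 difference of 2 in size. Genes higher in NT-D were of high level in both, at 45.4 and 25.3, and only 6 of them passed 2. Their median differences were 1.15 in NT-D-higher and -1.32 in NT-LW-higher genes. At the limit of 1, NIFK lay just inside and SF3B6 just outside on the NT-D side, and UBTF just inside and PGD just outside on the NT-LW side. The 73 NT-D-higher and 64 NT-LW-higher genes without a symbol were counted but not described, apart from the farthest in each direction. ENSSSCG00000032395 had 128 fragments in NT-D and 7193 in NT-LW, and ENSSSCG00000037252 had 204 in NT-D and 18 in NT-LW.

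Base composition moved with the direction of the difference. The median GC content of the transcript was 58.3% in genes higher in NT-LW and 42.6% in genes higher in NT-D, against 46.2% over all compared genes with a RefSeq transcript model. The values rest on 456 of the 487 NT-LW-higher genes with a symbol (93.6%) and on 144 of the 155 NT-D-higher ones (92.9%). For the NT-D-higher set as a whole this check is void, because 73 of its 228 genes had no symbol and no model. Gene length moved as well, with medians of 1466 bases in NT-D-higher, 2734 in NT-LW-higher and 3151 in all compared genes. The part of composition and length in the differences of single genes was not tested, but a running trend over GC content was removed as an alternative, and its values are given beside the groups below.

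The 12 genes with the largest difference toward NT-LW are of varied function, and 3 encode proteins that bind RNA. PABPN1L, a poly(A)-binding protein of oocytes and early embryos (ENSSSCG00000036367, chr6:854605-861969), had an FPKM value of 7.04 in NT-D, 109 in NT-LW and 1.88 in IV-D 2-cell embryos. Its level in the recipient oocytes was 82.0. The log2 difference was -3.42, from 103 fragments in NT-D and 1781 in NT-LW, and the interval of the ratio was 0.0683 to 0.103. DND1, an RNA-binding protein of germ cells, had 8 fragments in NT-D and 661 in NT-LW, or FPKM values of 0.223 and 16.4. NANOS1, a repressor of translation in germ cells, had 1.74 and 24.0, and TENT5B, of the family of terminal nucleotidyltransferases, 0.964 and 15.8. In the recipient oocytes DND1, NANOS1 and TENT5B were at 7.28, 3.21 and 3.88. These deposited values are not scaled between libraries, and genes picked for a high NT-LW value tend to lie above other libraries through that choice.

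CDCA4, a cell division cycle associated protein (ENSSSCG00000002559), had the largest difference of the genes named by rule on this side, at -3.89. It had 5 fragments in NT-D and 311 in NT-LW, FPKM values of 0.432 and 24.0, with a ratio between 0.00755 and 0.0552. PPP2R1A, the scaffold subunit of protein phosphatase 2A (ENSSSCG00000024413, chr6:57929520-57964948), had FPKM values of 1.99 in NT-D, 26.1 in NT-LW and 1.27 in IV-D embryos. The kinase PIM3 was at 3.92 and 45.5, and SOCS1, an inhibitor of cytokine signalling, at 6.71 and 66.5. CCNP, a cyclin, stood apart from the rest in its oocyte level of 139, which was far above both its NT-D value of 1.03 and its NT-LW value of 16.7. TOLLIP, an adaptor of Toll-like receptor signalling, had 0.944 and 19.0. ERFL had 16.8 and 196. The serine protease PRSS21 had 0.255 and 10.5. In IV-D 2-cell embryos these 12 genes had FPKM values from 0.0402 to 6.15, and since they were picked for their excess in NT-LW, nothing is read from their order. Of these 12 genes 8 had a transcript model, and all 8 were still past the limit with the GC trend removed, PABPN1L at -2.53 and CDCA4 at -3.14. They were picked for the largest differences, so this follows at least in part from that choice. Of all NT-LW-higher genes with a model, 183 of 456 were kept.

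**Figure D2:**
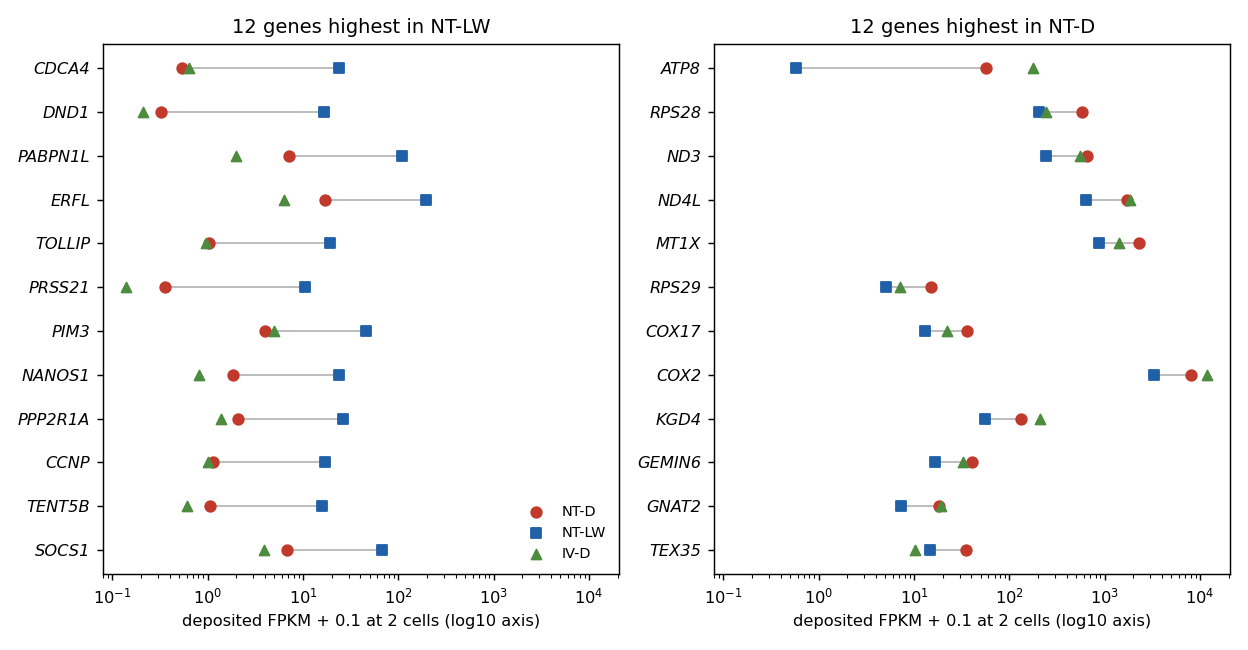
Deposited FPKM plus 0.1 (log10 axis) of the 12 named genes in each direction in the NT-D (red circles), NT-LW (blue squares) and IV-D (green triangles) 2-cell libraries, 1 library per point. On the left, where genes were picked for their excess in NT-LW, the squares lie at 10.5 to 196. On the right the gap between NT-D and NT-LW is smaller for all genes but ATP8.

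Stored RNAs are often lengthened at the poly(A) tail through the cytoplasmic polyadenylation element (CPE), a short U-rich signal near the AAUAAA signal at the 3′ end. The letters TTTTAT or TTTTAAT were found on the sense strand in the last 100 bases of the 3′ end in 23.7% of 401 NT-LW-higher, 27.2% of 103 NT-D-higher and 22.9% of all 4833 compared genes with such an end in the RefSeq models of Sscrofa11.1. AATAAA stood in the last 40 bases of 61.3%, 58.3% and 59.9%. The shares of both called sets were thus near that of all genes. To show that such ends occurred in genes of either direction, 30-base windows with the CPE letters in capitals are given 5′ to 3′. They come from the 3 genes of largest difference in each direction whose 3′ end held both signals. The windows show the CPE letters, and those of PPP2R1A and COL11A1 hold no AATAAA. All windows were chosen after the values were seen, and windows on chromosomes 8 and 18 were not used.
PPP2R1A: caactgtgccgtTTTTATtttattcctttc
AZIN2: tgaaacaaataaatatttaggttTTTTAAT
TRAF4: ggagccctgatTTTTAATaaatcctgaatt
ESF1: ttgtaaataaaatgtTTTTATtattttgta
CENPH: tatcaattgtatTTTTATtcaaataaatct
COL11A1: attcagaagttcTTTTATttttgaaatcaa

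The first 3 windows lie at chr6:57929559-57929588 (minus strand), chr6:89385294-89385323 (plus strand) and chr12:44981601-44981630 (plus strand), in genes higher in NT-LW. AZIN2, an antizyme inhibitor of polyamine metabolism, had FPKM values of 6.98 in NT-D and 59.7 in NT-LW, and the adaptor TRAF4 had 2.83 and 25.9. The other 3 lie at chr17:22418945-22418974 (minus strand), chr16:47378699-47378728 (plus strand) and chr4:115841585-115841614 (plus strand), in genes higher in NT-D. ESF1, a nucleolar protein of ribosome formation, had 48.7 in NT-D and 24.6 in NT-LW, the kinetochore protein CENPH 231 and 126, and the collagen gene COL11A1 33.6 and 17.8. The whole transcripts of the first 3 had a GC content of 58.4% to 63.2% and those of the other 3 of 36.7% to 47.6%.

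Among the 12 genes with the largest difference toward NT-D, 4 are encoded by the mitochondrial genome and 2 are ribosomal proteins of the small subunit. ATP8, a subunit of the ATP synthase (ENSSSCG00000018080, chrMT:8959-9162), had 208 fragments in NT-D and 2 in NT-LW, FPKM values of 56.3 and 0.484 and 177 in IV-D embryos. The difference was 5.52 with a ratio between 41.4 and 1258. ATP8 shares 43 bases with ATP6, and the value is uncertain because reads across both genes could be dropped or split in counting. RPS28 (ENSSSCG00000013597, chr2:70953709-70954772) had 579 in NT-D, 202 in NT-LW and 241 in IV-D embryos, a difference of 1.89 with a ratio of 3.50 to 3.97. RPS29 had 15.1 and 4.93. Both stayed past the limit with the GC trend removed, at 2.30 and 1.5. Ribosomal protein genes have many near-identical processed copies in the genome, which makes their counts uncertain too.

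No single role was common to all of the other 6 genes. MT1X, a metallothionein that binds zinc and copper, had 2296 in NT-D and 863 in NT-LW, with close paralogs that could share its reads. COX17, the copper chaperone of cytochrome c oxidase (chr13:140584286-140594636), had 35.9 and 12.8. KGD4, a subunit of the 2-oxoglutarate dehydrogenase complex, had 134 and 55.7. GEMIN6, of the complex that assembles spliceosomal particles, had 40.2 and 16.4. GNAT2, a transducin subunit, had 18.2 and 7.18, and TEX35, a testis-expressed gene, 35.1 and 14.7. The IV-D value lay between both clones for COX17 (22.1) and GEMIN6 (32.7), above both for KGD4 (207) and GNAT2 (19.0), and below both for TEX35 (10.1). Of these 12 genes 10 had a model, and all 10 were still past the limit with the GC trend removed. With the length trend removed too, ND3, ND4L, COX2, RPS29 and GNAT2 came to lie within it, at 0.81, 0.83, 0.74, 0.94 and 0.91. That all 10 stayed with only the GC trend removed follows at least in part from their choice as the largest differences. Of all NT-D-higher genes with a model, 74 of 144 were kept.

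All 13 protein-coding genes of the mitochondrial genome were above 0 in the difference, and 11 were called higher in NT-D (84.6%, against 3.3% of all genes). Their median difference was 1.45, against -0.05 over all compared genes. COX3, a core subunit of cytochrome c oxidase, had an FPKM value of 16739.7 in NT-D, 7423 in NT-LW and 22901 in IV-D 2-cell embryos. COX2 of the same complex had 8097, 3257 and 11796. Of the complex I subunits ND3 had 653, 239.6 and 544, and ND4L had 1698, 633 and 1841. CYTB, of complex III, had 2774 and 1694 in the clones. The 2 genes within the limit were COX1, with 11987 and 7941 and a difference of 0.97, and ND5, with 1176 and 1008 and a difference of 0.60. ND5 overlaps ND6 by 17 bases, and the NT-LW value was below the NT-D value in all 13 genes. As a share of all fragments the 13 genes took 6.29% in NT-D (95% exact interval 6.28 to 6.31), 3.42% in NT-LW (3.41 to 3.42) and 8.24% in IV-D 2-cell embryos. The share was 5.05% in the recipient oocytes, 4.68% in NT-D and 3.52% in NT-LW 1-cell clones, and 16.7% and 17.1% in the 4-cell clones. The NT-LW share therefore lay lower at both early stages, and the breeds were close at the 4-cell stage. Single genes did not all follow the share. At the 1-cell stage none of the 13 was called, with 9 differences above 0 and 4 below it (ATP8, ND4L, ND3 and COX2). At the 2-cell stage with the GC trend removed 9 of the 13 genes were past the limit and the median was 1.27. With GC and length trends removed the median was 0.72.

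For nuclear genes of oxidative phosphorylation 5 of 53 compared members were higher in NT-D (9.43%, against 3.3% of all genes) and 2 higher in NT-LW (3.77%, against 7.98%), with a median difference of 0.53. NDUFS5, of complex I, had 86.6 in NT-D and 51.8 in NT-LW, and the ATP synthase subunit ATP5PB had 29 and 16.6. SDHA, the catalytic subunit of complex II, went the other way with 4.17 and 14.0. Of cytosolic ribosomal proteins 10 of 43 were higher in NT-D (23.3%) and none in NT-LW, and 42 of 43 differences were above 0, with a median of 0.69. RPS20 had 122 and 71.1, and RPL7 105 and 61.4. These deposited values of NDUFS5, ATP5PB, RPS20 and RPL7 differ by less than 2-fold, so their calls rest on the scaling. RPS28 and RPS29 were past the limit without it, at 1.51 and 1.44. Without scaling 45 of all genes were higher in NT-D, against 228 with it. Mitochondrial ribosomal proteins were split, with 3 of 53 higher in NT-D (5.66%) and 5 higher in NT-LW (9.43%), both near the shares of all genes. Their median was 0.33, which turned to -0.02 without scaling. MRPL51 and MRPL58, with 8.45 and 4.26, and 14.8 and 8.10, lay on the NT-D side, and MRPL37 and MRPL4, with 9.01 and 32.9, and 3.07 and 11.8, on the NT-LW side. With the GC trend removed the medians of both ribosomal lists were 0.92 and 0.45, and with the length trend removed too 0.51 and 0.23. For oxidative phosphorylation that check is void, since 32 of 53 members had a model.

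**Figure D3:**
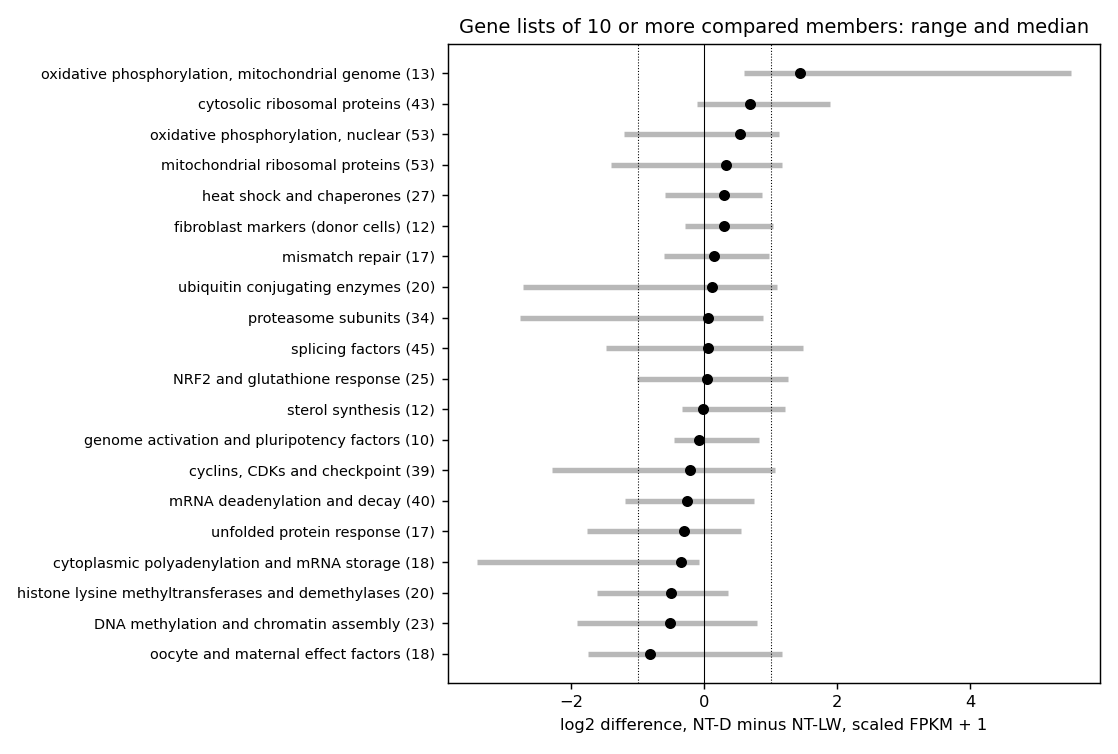
Log2 difference (NT-D minus NT-LW, scaled FPKM plus 1) of the gene lists with 10 or more compared members. Grey bars run from the lowest to the highest member, black points are medians, numbers in brackets are compared members, and dotted lines mark the limit of 1. Mitochondrially encoded genes (median 1.45) and cytosolic ribosomal proteins (0.69) lie at the NT-D end, and oocyte and maternal effect factors (-0.82) at the NT-LW end.

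Of 18 oocyte and maternal effect factors, 7 were higher in NT-LW (38.9%, against 7.98% of all genes) and 1 in NT-D (5.56%, against 3.3%), and the median was -0.82. MOS, the kinase that holds the egg in meiotic arrest, had an FPKM value of 402 in the recipient oocytes, 54.5 in NT-D, 234 in NT-LW and 34.5 in IV-D 2-cell embryos. ZAR1, which binds maternal RNA, had 9.46 in NT-D and 44.0 in NT-LW, and ZP3 of the zona pellucida 9.77 and 42.8. The growth factor BMP15 had 142 and 521, with 209 and 306 at the 1-cell stage. In NT-LW 2-cell clones ZAR1, ZP3 and BMP15 lay above the level of NT-LW 1-cell clones and MOS below it (291), while in NT-D all 4 lay below their 1-cell level, in deposited values and in genes picked as the members with the largest differences. The member higher in NT-D was the abundant OOSP2, an oocyte-secreted protein named here after its value was seen, with 5854 and 3378. With the GC trend removed the median of the 16 members with a model was -0.78, and 3 were past the limit toward NT-LW and 2 toward NT-D. ZAR1 came to lie within the limit at -0.88, while MOS, ZP3 and BMP15 stayed past it at -1.27, -1.07 and -1.42.

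Genes that act on stored RNA were called at a share near that of all genes. All 18 compared genes of cytoplasmic polyadenylation and mRNA storage had a difference below 0, with a median of -0.35, and 2 were called higher in NT-LW, PABPN1L and CPSF4 (against 7.98% of all genes). CPSF4, a subunit of the cleavage and polyadenylation factor, had 2.62 in NT-D and 8.20 in NT-LW. The poly(A)-binding proteins PABPC4, with 3.45 and 8.64, and PABPC1L, with 3.97 and 9.66, stayed within it. Of 40 genes of mRNA deadenylation and decay 4 were higher in NT-LW (10%) and none in NT-D, and the median was -0.26. Among them were ZFP36L2, which directs AU-rich RNA to decay (1.89 and 7.12), the exosome subunit EXOSC5 (5.04 and 15.9) and CNOT11 of the CCR4-NOT deadenylase (6.37 and 18.3). With the GC trend removed 1 member of each list was still past the limit, and the medians were -0.43 and -0.29.

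Of 20 histone lysine methyltransferases and demethylases 6 were higher in NT-LW (30%, against 7.98% of all genes) and none in NT-D (against 3.3%), with a median of -0.51. EHMT1, which methylates H3K9, had 1.82 in NT-D and 9.63 in NT-LW. NSD2, of H3K36, had 0.919 and 5.39. SETD1A, of H3K4, had 2.34 and 9.66. EZH1, of H3K27, had 4.51 and 15.1. Of 23 genes of DNA methylation and chromatin assembly 3 were higher in NT-LW (13%) and none in NT-D, with a median of -0.51, so the call share of this list was nearer to that of all genes. They were the acetyltransferase KAT2A (2.20 and 13.9), the deacetylase HDAC3 (2.11 and 8.09) and the histone chaperone ASF1B (37.7 and 116), and the de novo methyltransferase DNMT3B had 4.02 and 10.7. These genes were rich in GC, and with that trend removed 1 of each list was past the limit and the medians were -0.38 and -0.35.

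Of 39 cyclins, CDKs and checkpoint genes 5 were higher in NT-LW (12.8%, against 7.98% of all genes) and 1 in NT-D (2.56%, against 3.3%), with a median of -0.22. PLK1, a kinase of mitotic entry, had 10.4 in NT-D and 58.1 in NT-LW, the cyclin CCND3 0.782 and 9.44, and the replication licensing factors MCM3 and MCM5 1.18 and 5.03, and 3.40 and 11.6. The gene higher in NT-D was GMNN, the inhibitor of licensing, with 303 and 188, named here after its value was seen. Among 20 ubiquitin conjugating enzymes 3 were higher in NT-LW (15%) and 2 in NT-D (10%), a gene or so more than the shares of all genes would give in each direction. UBE2S, which extends chains for the anaphase-promoting complex, had 34.3 in NT-D and 302 in NT-LW, against 237 in the recipient oocytes, and UBE2J2 and UBE2G2 of endoplasmic reticulum degradation had 5.05 and 26.6, and 2.97 and 12.3. UBE2V2 lay on the other side with 625 and 379. The median of this list was 0.12, which turned to -0.23 without scaling. Of 34 proteasome subunits only PSMD3 was called, higher in NT-LW (2.94%, against 7.98% of all genes), with 2.67 in NT-D and 30.5 in NT-LW. The median of the subunits was 0.06 (-0.29 without scaling). PSMC3, PSMA4 and PSMD7 stayed within the limit, at -0.94, 0.88 and 0.84.

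In the remaining lists calls were few, with at most 4 in either direction. Over all genes 3.3% were higher in NT-D and 7.98% higher in NT-LW. Counts this small are not read as a result about a list. Of 17 genes of the unfolded protein response CHAC1 (1.23 and 8.19) and CRELD2 (1.26 and 5.78) were higher in NT-LW (11.8%). The chaperone HSPA5 had 9.37 and 24.7 within the limit. The median was -0.30. Of 25 genes of the NRF2 and glutathione response PRDX1, a peroxiredoxin (225 and 122), and SOD1, a superoxide dismutase (68.9 and 39.5), were higher in NT-D (8%). HMOX2, named after its value was seen, was higher in NT-LW (0.524 and 2.52), or 4% of the list. The median was 0.04, and -0.28 without scaling. Splicing factors had 4 of 45 members higher in NT-D (8.89%), among them SNRPB2 (213 and 98.2) and HNRNPH1 (37.2 and 19.4). The 1 splicing factor higher in NT-LW was SF3B4 (3.04 and 13), or 2.22%. The median of the list was 0.06, and -0.26 without scaling. In sterol synthesis MSMO1 alone of 12 was called (8.33%), with 368 in NT-D and 206 in NT-LW. The median was -0.02, and 0.13 with factors from all 23 libraries.

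None of 17 mismatch repair genes, 27 chaperones and 10 genome activation and pluripotency factors was called, against 11.3% of all genes. Lists this short would hold few calls at that share, so nothing is read from the absence of calls. Their medians were 0.15, 0.30 and -0.08, and the sign turned for the first 2 without scaling and for the third with factors from all 23 libraries. RPA2 (135 and 89.2), HSPE1 (3054 and 2181) and HMGN1 (91.8 and 67.1) had the largest differences of the named members, at 0.97, 0.86 and 0.82. OTX2, a homeobox factor, had 148 and 221, and LIN28A, which binds let-7 precursors, 15.6 and 17.4. Of 13 trophectoderm factors 3 passed the minimum for comparison, with a median of -0.92, and of these PDGFA (2.75 and 8.67) was higher in NT-LW.

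Transcripts of fibroblast markers were measured in both clone libraries. In a longer list of 17 fibroblast genes 12 were compared and 1 was called higher in NT-D (8.33%, against 3.3% of all genes). The median of the list was 0.29 (-0.11 when each library was rescaled to an equal sum). The calcium-binding protein S100A4 was at 0 in the recipient oocytes, 0.12 in IV-D, 76.8 in NT-D and 48.2 in NT-LW 2-cell embryos, a difference of 1.03. In IV-D 1-cell embryos S100A4 was at 39.9, so it was read in a fertilized library too. S100A6 had 17.2 and 11.2, ACTA2 30.6 and 30.7, and COL1A2 9.56 and 9.2. Of the 12 genes 7 had a scaled difference above 0 and 5 below it. Those below 0 included COL3A1 (-0.29), COL1A1 (-0.22), VIM (-0.10) and SPARC (-0.03), which are named here after their values were seen. The 3 compared genes of a list of 7 cumulus and granulosa genes had a median of 0.20 and no call, with VCAN at 0.75. The part of donor RNA in the other differences was not tested.

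Across stages the NT-LW-higher genes were followed by their median level, which among the 2-cell libraries was highest in NT-LW. Their median FPKM value was 6.37 in the recipient oocytes, 10.9 in NT-D and 7 in NT-LW 1-cell clones, 2.44 and 11.8 at the 2-cell stage, and 2.96 and 3.17 at the 4-cell stage. In IV-D embryos it was 4.77, 1.44 and 3.08 at the 1-cell, 2-cell and 4-cell stages. The NT-D-higher genes had a median of 35.4 in the recipient oocytes, 34.3 and 38.4 in 1-cell, 45.4 and 25.3 in 2-cell, and 38.2 and 41.4 in 4-cell clones, against 44.1 in IV-D 2-cell embryos. Since the genes were chosen at the 2-cell stage, the gap there is a result of the choice, whereas the libraries of the other stages did not enter it.

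**Figure D4:**
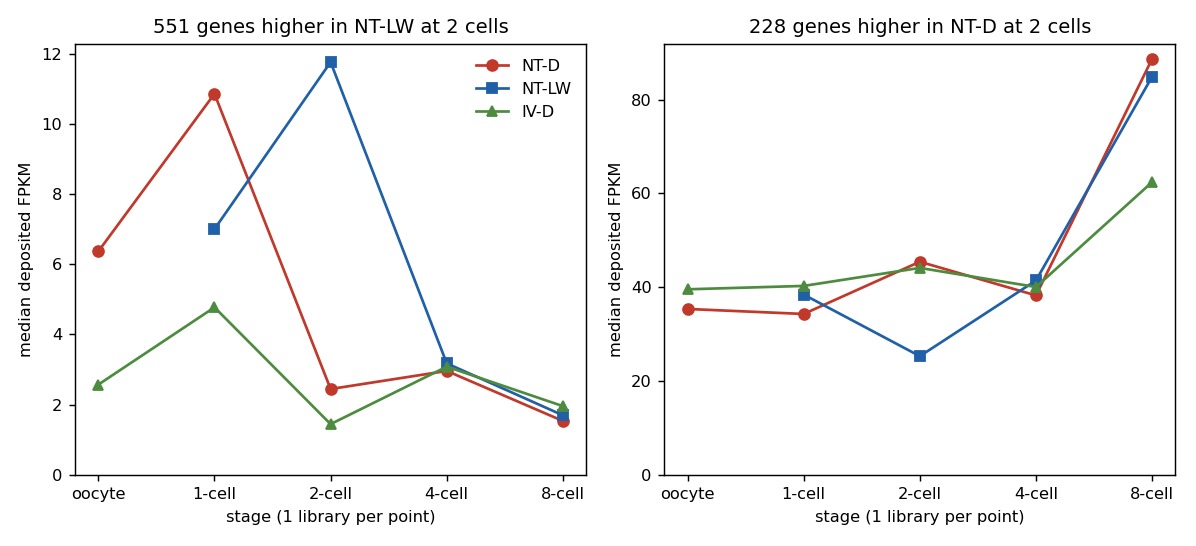
Median deposited FPKM of the 551 genes higher in NT-LW (left) and the 228 genes higher in NT-D (right) from the oocyte to the 8-cell stage in NT-D (red), NT-LW (blue) and IV-D (green), 1 library per point. On the left the NT-D and IV-D lines drop from the 1-cell to the 2-cell stage while NT-LW goes from 7 to 11.8 and reaches 3.17 at the 4-cell stage. On the right NT-LW dips to 25.3 at the 2-cell stage, and all lines lie between 38.2 and 41.4 at the 4-cell stage.

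The breeds were compared in the same way at the other stages, on libraries that the 2-cell comparison did not use. Between 1-cell clones 456 of 7118 genes were called (6.41%), 334 of them higher in NT-D (4.69%). Among the NT-LW-higher genes of the 2-cell stage 136 of 546 compared at the 1-cell stage were higher in NT-D there (24.9%), 8 were higher in NT-LW (1.47%, against 1.71% over all genes), and their median difference was 0.53. Thus the median difference of the NT-LW-higher genes had the opposite direction at the earlier stage. PPP2R1A had 30.4 in NT-D and 5.94 in NT-LW 1-cell clones, against 1.99 and 26.1 at the 2-cell stage. SETD1A had 15.5 and 4.98, against 2.34 and 9.66, and PSMD3 had 23.6 and 8.35, against 2.67 and 30.5. In all 140 genes were called in opposite directions at the 1-cell and 2-cell stages and 10 in the same direction. Of the 140 genes 136 were higher in NT-LW at the 2-cell stage and 4 higher in NT-D. Those 4 were 1.81% of 221 NT-D-higher genes compared at the 1-cell stage, near the 1.71% over all genes. Between 4-cell clones 307 of 7403 genes were called (4.15%), and of the NT-LW-higher genes 8 of 478 were higher in NT-LW (1.67%, against 2.99%) and 2 in NT-D (0.418%). PABPN1L had 2.88 and 2.52, and CDCA4 1.15 and 1.06. NT-D-higher genes had 2 of 221 higher in NT-D at the 1-cell stage (0.905%) and 12 of 227 at the 4-cell stage (5.29%, against 1.16% over all genes). At the morula stage 1671 of 7897 genes were called (21.2%), 1138 higher in NT-D (14.4%) and 533 in NT-LW (6.75%). There 127 of 492 NT-LW-higher genes of the 2-cell stage were higher in NT-D (25.8%), and 42 of 213 NT-D-higher genes were higher in NT-LW (19.7%). By the number of genes called between breeds the 2-cell stage stood second of the 7 stages with 779, after the morula and before TE with 714 (10.7%).

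The 3 kinds of embryo took a step of unequal size between the 1-cell and 2-cell stages. By the same limit 1565 genes were called between the 1-cell and 2-cell libraries of NT-D (22.4% of those compared), 475 in NT-LW (6.69%) and 1810 in IV-D (27.2%). Against the IV-D 2-cell library 454 genes were called in NT-D (7.06%) and 2074 in NT-LW (30.1%). These counts share the 2-cell libraries with the comparison of the breeds and are given only side by side.

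The tie to GC content was followed over the same stages. In the decile of genes with the highest GC content 219 of 562 were higher in NT-LW at the 2-cell stage (39%) and 2 in NT-D, with a median of -0.81. In the lowest decile 1 was higher in NT-LW and 28 in NT-D, with a median of 0.20. Across 5618 genes, which are not independent and share 2 libraries, Spearman's rho of the difference with GC content was -0.45. It was 0.36 at the 1-cell, -0.20 at the 4-cell and 0.06 at the 8-cell stage. Within single libraries the median log2 of FPKM plus 1 of the GC-richest quintile of genes minus that of the GC-poorest quintile came to -2.02 for NT-D and -1.19 for NT-LW at the 2-cell stage. It was -0.88 and -1.47 at the 1-cell stage, -1.56 in the recipient oocytes, and -2.44 in IV-D 2-cell embryos. The order of the breeds on this scale was thus opposite at the 1-cell and 2-cell stages, as was the median difference of the NT-LW-higher genes described above. When the trend was removed, the genes with a model that were called changed from 456 to 210 on the NT-LW and from 144 to 167 on the NT-D side, and 183 and 74 of the genes called before were kept. Whether the trend arose in the embryos or in the making of the libraries was not tested.

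**Figure D5:**
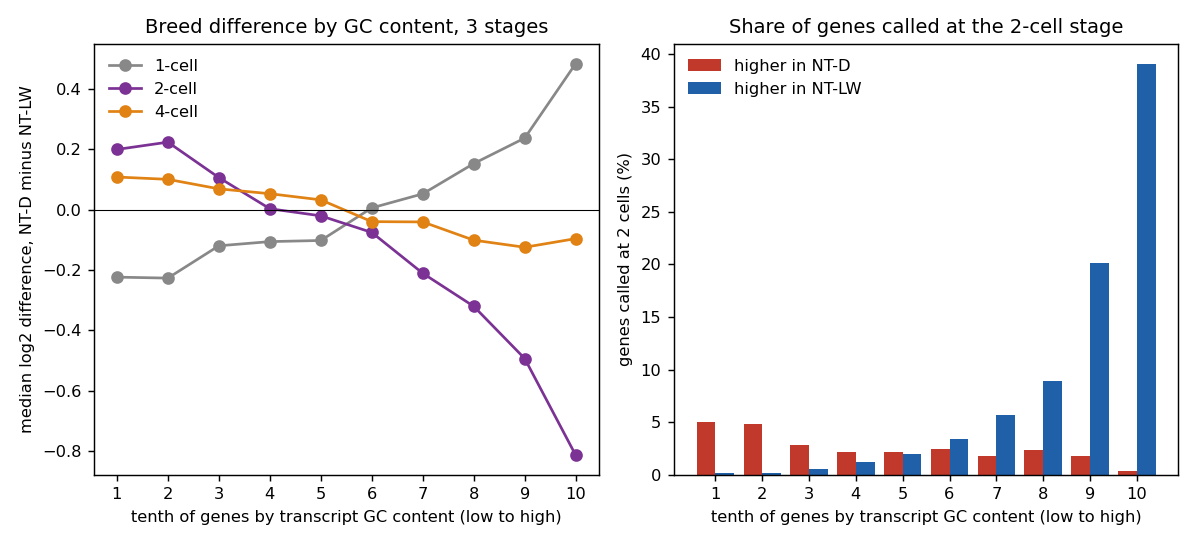
Left, median log2 difference between NT-D and NT-LW clones in deciles of genes ordered by transcript GC content at the 1-cell, 2-cell and 4-cell stages. Right, percentage of genes called in each direction at the 2-cell stage (bars from 0). The 2-cell line descends to -0.81 in the decile with the highest GC content, the 1-cell line climbs to 0.48, and 39% of genes in that decile were higher in NT-LW at the 2-cell stage.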

How the data were processed

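RNA of pooled embryos was amplified with the SMART-Seq v4 kit and sequenced as paired reads. The authors aligned reads to Sscrofa11.1 with HISAT2 2.0.4, counted them per Ensembl gene with HTSeq 0.9.1 and deposited the result as FPKM, in which fragments are divided by gene length and library depth. DESeq is named in the submitters' processing notes too, but no values of it were used. The name of the deposited table marks its 8603 genes as differentially expressed, by a criterion not given in the sources used here, so counts and shares hold within this table only. Symbols were available for 7371 genes, and 6910 matched 1 RefSeq transcript model of Sscrofa11.1, which gave positions, GC content and 3′ ends.

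Because FPKM values are whole fragments over length and depth, fragments, gene lengths and depths were recovered from the steps between values (100% whole within 0.001, depths 14952784 to 22991067). The pair was scaled by median ratios, with a pseudocount of 1, a minimum FPKM value of 1 and a limit of 1 on the log2 scale. Exact 95% intervals of ratios are conditional binomial intervals. PCR copies are not independent molecules, so intervals cover counting error only. The scaling, the calls and the recovery were tested on simulated data. For scaling and calls the simulated libraries shared 1 profile, with equal numbers of raised and lowered genes and no GC trend. An uneven split or a GC trend as in this pair was therefore not covered. Named genes were the 12 of largest difference in each direction among those that have a symbol and reach an FPKM of 10 in either library, and up to 4 members of each of 22 lists that reach an FPKM of 5. The members and lists were chosen with earlier results of these data known. A result on 1 list member is not reported here. The lists come from general knowledge of gene function. Alternatives were other scalings, a pseudocount of 0.1, a minimum of 5 or none, and the counting interval. Removal of GC and length trends by running medians over 301 genes was chosen after seeing the data. Python 3.11.15, pandas 2.3.3, numpy 2.4.6, scipy 1.17.1 and samtools 1.23.1 were used.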

Additional observations from a re-analysis of the deposited data

Results flagged for a closer look

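Among the genes named here 11 were called higher in NT-LW at the 2-cell stage and higher in NT-D at the 1-cell stage, and the difference between the stages was not tested, since each stage had 1 library a side. The log2 difference of NT-D minus NT-LW was -3.89 at the 2-cell and 1.22 at the 1-cell stage for CDCA4. It was -2.90 and 1.27 for PIM3. For PPP2R1A it was -2.87 and 2.18. CPSF4 had -1.04 and 1.4. PSMD3 had -2.78 and 1.4, PLK1 had -2.01 and 1.07, and MCM5 had -1.19 and 1.29. The methyltransferases NSD2 and SETD1A had -1.48 and 1.39, and -1.37 and 1.46. KAT2A had -1.91 and 1.06, and PDGFA -1.06 and 1.24. All 11 genes had a transcript GC content above the median of the compared genes of 46.2%, from 56.6% in CPSF4 to 66.8% in PIM3, and the part of the GC trends of both stages in these values was not tested.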

How the results depend on the processing

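The number of genes higher in NT-D was 45 without scaling, 48 with each library rescaled to a sum of 1000000 and 417 with factors from all 23 libraries. The number higher in NT-LW was 1076 without scaling, 1766 with the equal sum and 912 with a pseudocount of 0.1. All called genes came to 1814 with the equal sum and 1213 with that pseudocount. Among genes with a RefSeq model the 600 called came to 377 with the GC trend removed, of which 210 were higher in NT-LW, and to 362 with GC and length trends removed, of which 92 were higher in NT-D and 270 in NT-LW. The 2-cell stage stood second of the 7 stages in all 7 alternatives. Without scaling 22 of 100 named values changed their call and 8 of 22 list medians changed sign, and with the GC trend removed 25 of 91 and 1 of 22 did. No paired analysis was possible because each breed had 1 library at the stage and the numbers pair nothing. For the same reason no replicate could be left out, and no value of the comparison has a replicate check.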
